A study of Homo sapiens with 6 samples.

Results

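The human histone genes were examined for IGF2BP3-binding clusters in HCT116 cells. They were taken as the GENCODE release 44 protein-coding genes whose symbols mark H1, H2A, H2B, H3 and H4 histones and the variants H2AZ, H2AX, H2AJ, H3-3 and macroH2A, which gave 82 of 20046 genes. By symbol, 70 of them were replication-dependent histones (H1-1 to H1-6 and the genes named H2AC, H2BC, H3C and H4C), and 12 were variant histones, such as H1-10, H2AZ1, H2AZ2, H2AX, H2AJ, H3-3A, H3-3B, MACROH2A1 and MACROH2A2. Clusters that shared at least 1 nt and the strand with an exon were assigned to its gene.

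Histones package nuclear DNA. Replication-dependent histone genes lie in clusters, lack introns and are transcribed in S phase, and their mRNAs end just behind a conserved stem-loop that is bound by SLBP, instead of in a poly(A) tail. Variant histone mRNAs are polyadenylated and are made throughout the cell cycle, and their proteins replace the canonical histones at particular sites of chromatin. IGF2BP3 is an oncofetal RNA-binding protein that binds mainly mature mRNAs in the cytoplasm and is known for stabilizing them.

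All libraries came from HCT116, a human colorectal carcinoma line, here carrying Tet-OsTIR1. The cells were labeled with 100 µM 4-thiouridine (4sU) for 15 h and crosslinked with UV light. IR-PAR-CLIP recovers the RNA crosslinked to an immunoprecipitated protein, and T-to-C conversions in the reads mark the crosslinked uridines. IGF2BP3 was precipitated from 5 samples that differed in RNase, named here by the concentrations in U/µL in lysate/on beads: RNase I 0.05/0.05, 0.1/0.025 and 0.05/0.025, and RNase T1 1/1 and 0.25/0.25. A sixth sample was precipitated with IgG after RNase I 0.1/0.025. Each condition had 1 library, so no difference between conditions could be tested and every interval below covers counting error only. The gel extraction differed as well. RNase I 0.05/0.05 and RNase T1 1/1 were electroeluted and the other IGF2BP3 libraries came from crushed gel, so extraction and concentration cannot be told apart within RNase T1 or between RNase I 0.05/0.05 and the other RNase I libraries. RNase I 0.1/0.025 and 0.05/0.025 shared the extraction and differed in the lysate concentration. The polyclonal antibody recognizes IGF2BP2 in part, and its share in any cluster was not tested. RNA levels were not measured, so stronger binding and a more abundant mRNA cannot be told apart.

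The clusters held 2362467 reads in RNase I 0.05/0.05, 803490 in RNase I 0.1/0.025, 670712 in RNase I 0.05/0.025, 1157194 in RNase T1 1/1 and 182448 in RNase T1 0.25/0.25. The IgG library held 25 clusters with 324 reads and none on any of the 82 histone genes. Levels are given in CPM, the reads of a cluster scaled to 1e6 cluster reads of its library. Target genes needed at least 1 cluster that exceeded both 10 CPM and a rate of 0.5 conversion events (T read as C) per read. In RNase T1 0.25/0.25, 10 CPM equals 1.82 reads, so every cluster passed that threshold, whereas in RNase I 0.05/0.05 it equals 23.6 reads.

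The histone stem-loop, a 16-nt consensus, was searched on the coding strand of the GRCh38 genome in the 150 nt behind the stop codon of each gene. It was found in 69 of 70 replication-dependent genes and in 1 of 12 variants, H2AX. Of all 20046 protein-coding genes 0.364% held it, and outside the 82 histone genes it was found only in H3-4, H3-7 and BTBD10. The one replication-dependent gene without it was H2BC12L. Among the 69 genes it began 23 to 68 nt behind the stop codon (median 36 nt). The sites below are shown because IGF2BP3 clusters covered them. Each is 30 nt of the 3′UTR or its downstream flank in GRCh38, read 5′ to 3′ on the coding strand, with the stem-loop in capitals.
H1-4, chr6:26157088-26157117, plus strand: acccaaaGGCTCTTTTCAGAGCCacccacc
H2BC5, chr6:26158580-26158609, plus strand: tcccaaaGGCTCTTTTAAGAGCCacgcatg
H2BC7, chr6:26199961-26199990, plus strand: tcccaaaGGCTCTTTTAAGAGCCacccact
H4C2, chr6:26026894-26026923, minus strand: ttccaatGGCCCTTTTCAGGGCCgcccact
H4C5, chr6:26204994-26205023, plus strand: aatcaaaGGCCCTTTTCAGGGCCgcccaca
H2AX, chr11:119094891-119094920, minus strand: ccacaaaGGCCCTTTTAAGGGCCaccaccg

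In 4 of 5 libraries most cluster reads of the replication-dependent genes lay in clusters assigned to coding sequence. With clusters whose sequence occurs once in the genome, this held only in RNase I 0.1/0.025 (68.3%) and 0.05/0.025 (66.9%). The H2A coding clusters below are shown because they lie at a place where several H2A genes had clusters. The H2B clusters are shown because H2BC18 and H2BC21 carry the same letters, as H2AC13 and H2AC14 do. The H2A clusters are from RNase T1 0.25/0.25 and the H2B clusters from RNase I 0.1/0.025. Capitals mark the tetramers CATA, CATC and CATT, the DNA spelling of the CAUH motif of IGF2BP proteins.
H2AC13, chr6:27808430-27808475, plus strand: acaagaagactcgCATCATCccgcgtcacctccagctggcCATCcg
H2AC14, chr6:27814475-27814520, minus strand: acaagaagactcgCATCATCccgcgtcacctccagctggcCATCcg
H2AC11, chr6:27133299-27133342, plus strand: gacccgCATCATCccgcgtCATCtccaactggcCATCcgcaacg
H2BC18, chr1:149812042-149812071, minus strand: aacaagcgctccacCATCaCATCccgcgag
H2BC21, chr1:149886359-149886388, minus strand: aacaagcgctccacCATCaCATCccgcgag

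Most cluster reads of the variants lay in 3′UTRs. The first 30 nt, or all where shorter, of the cluster with most reads in RNase T1 0.25/0.25 are shown for 5 of them with the same tetramers in capitals. Those of H2AX hold none of the tetramers.
H3-3B, chr17:75778473-75778502, minus strand: gttgCATTtgtacttaagtCATTcCATCtt
H3-3A, chr1:226071872-226071901, plus strand: tCATAcagtagattcCATCCATTcactata
H2AZ1, chr4:99948113-99948142, minus strand: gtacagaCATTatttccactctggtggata
MACROH2A2, chr10:70111962-70111984, plus strand: acttttacacaCATTcacacaag
H2AX, chr11:119093997-119094026, minus strand: gataccagcacaagtcggttaatccctgtc

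The share of variant genes with a cluster was above that of all protein-coding genes in 5 of 5 libraries, and the share of replication-dependent genes was below it in 3. Of the 12 variants, 9 had a cluster in each RNase I library (75%), 8 in RNase T1 1/1 (66.7%) and 7 in RNase T1 0.25/0.25 (58.3%). Of the 70 replication-dependent genes, 20 had a cluster in RNase I 0.05/0.05 (28.6%), 23 in RNase I 0.1/0.025 (32.9%), 31 in RNase I 0.05/0.025 (44.3%), 2 in RNase T1 1/1 (2.86%) and 5 in RNase T1 0.25/0.25 (7.14%). In the same order, 43.7%, 32%, 30.3%, 37.6% and 16.7% of all protein-coding genes had a cluster, and 0.0449% had one in the IgG library. The replication-dependent share was above this background in RNase I 0.05/0.025 and within 1 percentage point of it in RNase I 0.1/0.025. These shares include near-identical genes that can list the same reads. Clusters whose sequence occurs once in the genome were found in 12, 17, 24, 2 and 3 of the 70 genes in the same order. For the 12 variants these counts were 9, 8, 9, 7 and 6. The background was not recomputed in this way.

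Fewer replication-dependent genes met the target criteria. They numbered 1 in RNase I 0.05/0.05 (1.43%), 7 in RNase I 0.1/0.025 (10%), 14 in RNase I 0.05/0.025 (20%), 1 in RNase T1 1/1 (1.43%) and 3 in RNase T1 0.25/0.25 (4.29%). Of the variants, 7 were targets in each RNase I library (58.3%) and 6 in each RNase T1 library (50%). The background of targets was 21.9%, 21.3%, 22%, 19.6% and 13.7% of all protein-coding genes in the same order, and 0.0299% in the IgG library. The replication-dependent genes lay below it in all 5 libraries, although in RNase I 0.05/0.025 the interval of their share, 12.3% to 30.8%, included it. That interval treats the genes as independent, whereas near-identical genes can be called on the same reads, so it is no test. Over the 5 libraries together, 34 replication-dependent genes had a cluster (48.6%) and 18 were targets (25.7%) in at least 1 library, against 46.7% and 29.5% of all protein-coding genes. Near-identical genes can be counted here on the same reads. Clusters whose sequence occurs once in the genome left 26 genes with a cluster and 12 targets, and the background was not recomputed this way. None of the 34 had a cluster in all 5. Without RNase I 0.05/0.025, the number of targets among them dropped from 18 to 9. Of the variants, 9 had a cluster and 8 were targets in at least 1 library (75% and 66.7%). Of these 9, 7 had a cluster in all 5 libraries, and 5 were targets in all 5, among them H3-3B, H2AZ1, H2AZ2 and H3-3A. In RNase I 0.1/0.025 and both RNase T1 libraries, every H3-3A cluster had a sequence that occurs elsewhere in the genome. Its target calls there cannot be assigned to H3-3A alone.

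**Figure D1:**
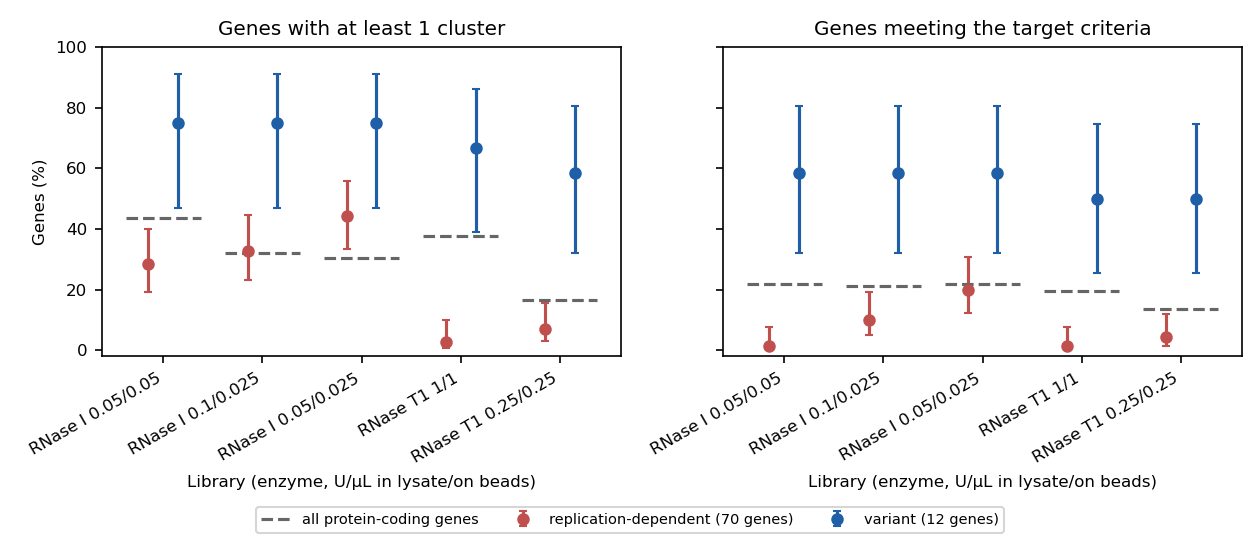
Percent of replication-dependent (red, 70 genes) and variant (blue, 12 genes) histone genes with at least 1 cluster (left) and meeting the target criteria (right) in each IGF2BP3 library; bars are 95% Wilson intervals for counting error, and dashed lines give the share of all 20046 protein-coding genes. The variants lie above the dashed line in every library, and the replication-dependent genes drop to 2.86% with a cluster in RNase T1 1/1.

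The difference in reads was larger than that in genes. The replication-dependent genes had 316, 298, 614, 18 and 39 reads in RNase I 0.05/0.05, 0.1/0.025, 0.05/0.025, RNase T1 1/1 and 0.25/0.25, which are 134, 371, 915, 15.6 and 214 CPM. The 12 variants had 4958, 2981, 2617, 2351 and 995 reads in the same order, or 2099, 3710, 3902, 2032 and 5454 CPM. Replication-dependent genes therefore gave 5.99%, 9.09%, 19%, 0.760% and 3.77% of all histone cluster reads. In both classes the electroeluted library had the lowest CPM of its enzyme.

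Histone mRNAs differ in length, with a median canonical transcript of 487 nt in the replication-dependent class and 1554 nt among the variants. Per kb of canonical transcript, the variants had 105, 186, 196, 102 and 273 CPM and the replication-dependent genes 3.67, 10.2, 25.1, 0.426 and 5.86 CPM in the same order of libraries. The ratio of these levels was 28.7, 18.3 and 7.79 with RNase I, and 239 and 46.6 with RNase T1. It was therefore smallest in RNase I 0.05/0.025 and largest in RNase T1 1/1, where it rests on 18 reads. These levels count reads on all annotated exons. With reads on canonical exons alone the ratios were 34.3, 17.7 and 7.32 with RNase I, and 667 and 43.2 with RNase T1, where that of RNase T1 1/1 rests on 6 reads. RNase T1 cuts behind guanosines. The G content of the whole transcripts was 27.9% in the replication-dependent and 27.2% in the variant class. The GC content of the clusters differed more, with 53.9% against 37.0% in RNase T1 1/1 and 56.4% against 39.8% in RNase T1 0.25/0.25. The replication-dependent values come from 2 and 5 clusters. Whether the enzyme accounts for the low counts with RNase T1 was not tested.

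The conversion rate did not separate the classes as the reads did. The clusters of the replication-dependent genes had 0.680, 0.628, 0.619, 0.722 and 0.795 conversion events per read, and those of the variants 0.668, 0.672, 0.640, 0.528 and 0.566. For all clusters of each library the rates were 0.633, 0.644, 0.600, 0.511 and 0.547. Both classes thus lay above their library in each case except the replication-dependent class in RNase I 0.1/0.025, and the high RNase T1 values of that class rest on 2 and 5 clusters.

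Mapping limits the assignment within the replication-dependent class. Many of its genes are near-identical copies, and 41 of its 134 clusters (30.6%) had a sequence that occurred more than once in the genome, against 17 of 247 (6.88%) in the variants. For 38 of the 41 and all 17 a cluster was also listed at a copy, so sums over the class can hold the same reads repeatedly. The other 3, on H2AC17 and H3C12, H2AC19 and H2BC18, had no cluster at their copies. Clusters of unique sequence alone gave the replication-dependent class 94.8, 263, 649, 15.6 and 93.2 CPM and the variants 2072, 3688, 3881, 1663 and 4889 CPM. For 7 of the 70 replication-dependent genes no 30-nt stretch of the transcript was unique, and a cluster on these cannot be assigned to 1 gene.

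Replication-dependent clusters were weak, with 3 to 39 reads each (median 7), whereas variant clusters had 2 to 3202 reads (median 10). In RNase I 0.05/0.025, the library with most of them, 32 of 64 replication-dependent clusters (50%) overlapped a cluster of another IGF2BP3 library. Among its variant clusters the share was 97.8% and among all clusters on protein-coding exons 95.7%. In RNase I 0.05/0.05 the order was different, at 80.6% for replication-dependent, 74.3% for variant and 59.2% for all exon clusters.

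**Figure D2:**
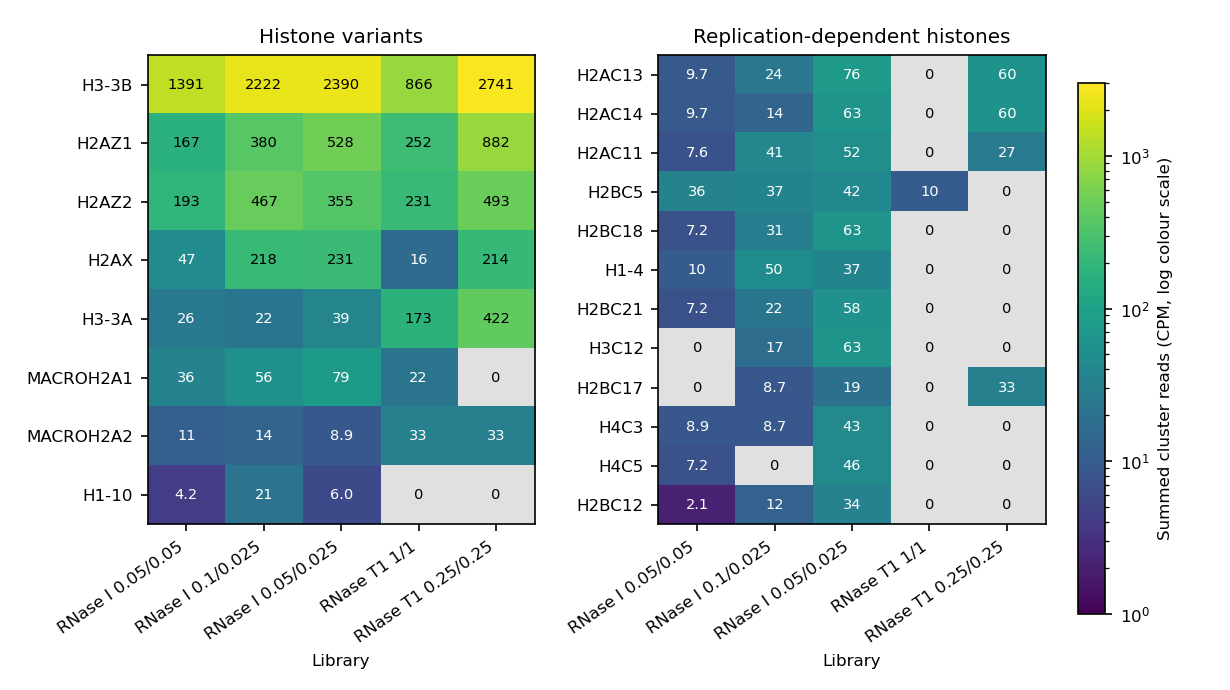
Summed cluster reads in CPM (number in each cell, log colour scale) of 8 of the 9 variant histones with a cluster and of the 12 replication-dependent histones with the highest mean, in each IGF2BP3 library; grey cells had no cluster. H3-3B holds the highest value in every column, and most replication-dependent cells of the RNase T1 columns are empty.

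H2AC13, H2AC14 and H2AC11 had the highest mean CPM of the replication-dependent genes, although H2BC5 had the most reads, 154 against 104, 87 and 91. By family, H2B genes had more CPM than H2A genes in RNase I 0.05/0.05 (52.1 against 39.4), RNase I 0.1/0.025 (132 against 111) and RNase T1 1/1 (10.4 against 0), and fewer in RNase I 0.05/0.025 (242 against 349) and RNase T1 0.25/0.25 (65.8 against 148). H2AC13, H2AC14 and H2AC11 encode H2A, which pairs with H2B in the nucleosome, and lie in the histone cluster on chromosome 6. H2AC13 had 9.74, 23.7 and 76.0 CPM in RNase I 0.05/0.05, 0.1/0.025 and 0.05/0.025, no cluster in RNase T1 1/1 and 60.3 CPM in RNase T1 0.25/0.25. H2AC14 had 9.74, 13.7 and 62.6 CPM with RNase I, none in RNase T1 1/1 and 60.3 CPM in RNase T1 0.25/0.25. H2AC11 had 7.62, 41.1 and 52.2 CPM with RNase I, none in RNase T1 1/1 and 27.4 CPM in RNase T1 0.25/0.25. These 3 genes were the only replication-dependent targets in RNase T1 0.25/0.25, where their clusters held 11, 11 and 5 reads. The clusters of H2AC13 and H2AC14 printed above are identical in sequence and had the same count, so the pair cannot be told apart there, whereas the sequence of the H2AC11 cluster was unique.

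The H2A clusters met at 1 place in the coding sequence. Over the 17 H2A genes, 17 of 42 clusters on canonical transcripts shared the stretch from 157 to 136 nt before the end of the stop codon, and these came from 9 genes and 4 libraries. The printed clusters of H2AC13, H2AC14 and H2AC11 cover this stretch. Some of the clusters there have sequences that occur in several genes. They include H2AC13 and H2AC14 in RNase I 0.05/0.05 and RNase T1 0.25/0.25, and H2AC18, H2AC19 and H2AC20 in RNase I 0.05/0.025. The same reads can therefore be counted at several genes, and clusters of unique sequence were not counted apart. The coding sequence of H2A genes is 387 to 396 nt long, so the stretch lies in its 3′ part.

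Among the H2B genes, H2BC18 and H2BC21 lie on chromosome 1 and share part of their coding sequence. H2BC18 had 7.20, 31.1 and 62.6 CPM with RNase I and no cluster with RNase T1. H2BC21 had 7.20, 22.4 and 58.2 CPM with RNase I and none with RNase T1. Their clusters from 128 to 99 nt before the end of the stop codon, printed above, had 18 reads each in RNase I 0.1/0.025. That sequence occurs in both genes, so the same reads can be listed at each and do not show a place common to several genes. The place where most H2B clusters overlapped lay at the start of the mRNA. There 11 of 26 H2B clusters, from 5 genes and 4 libraries, shared the stretch from 400 to 391 nt before the end of the stop codon, just ahead of a coding sequence of 381 to 384 nt. H2BC17 had 8.71, 19.4 and 32.9 CPM in RNase I 0.1/0.025, RNase I 0.05/0.025 and RNase T1 0.25/0.25 and no cluster in the other 2 libraries, and its RNase T1 cluster lay at that place. H2BC12 had 2.12, 12.5 and 34.3 CPM with RNase I and no cluster with RNase T1.

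H2BC5 was the one replication-dependent target of both electroeluted libraries. It had 35.6, 37.3 and 41.8 CPM with RNase I, 10.4 CPM in RNase T1 1/1 and no cluster in RNase T1 0.25/0.25. The clusters fell in separate parts of the gene. Those over the stop codon and the stem-loop had 22 reads in RNase I 0.05/0.05 and 23 reads in RNase I 0.05/0.025. In RNase I 0.1/0.025 a cluster of 16 reads crossed the stop codon and ended 34 nt behind it, ahead of the stem-loop. Coding clusters had 6 reads in RNase I 0.05/0.05 and 5 reads in RNase I 0.05/0.025. Distal clusters lay 12463 to 12719 nt downstream of the stop codon along the genome, in the last exon of a longer annotated H2BC5 transcript, with 39 and 17 reads in RNase I 0.05/0.05, 6 and 8 reads in RNase I 0.1/0.025 and 12 reads in RNase T1 1/1. Both target calls of H2BC5, in RNase I 0.05/0.05 and RNase T1 1/1, rested on these distal clusters. H2AC6 had distal clusters of the same kind, 13780 to 13905 nt downstream, with 4 and 8 reads in RNase I 0.05/0.05 and 5 reads in RNase I 0.1/0.025. H2AC6 is outside the 12 leading genes and is named for this exon after its values were seen.

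Linker histone H1-4, which binds DNA between nucleosomes, had 10.2, 49.8 and 37.3 CPM with RNase I and no cluster with RNase T1. It was a target in RNase I 0.1/0.025 and 0.05/0.025. In each RNase I library a cluster of H1-4 lay at the first nucleotides of the mRNA, with 12, 18 and 15 reads, and each of its clusters was of unique sequence. H1-2 was the other H1 gene of 6 with a cluster.

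Of 13 H3 genes 5 had a cluster in any library (38.5%, against 46.7% of all protein-coding genes) and H3C12 alone was a target (7.69%, against 29.5%), in RNase I 0.05/0.025. H3C12 had 17.4 CPM in RNase I 0.1/0.025, 62.6 CPM in RNase I 0.05/0.025 and no cluster in the other 3 libraries. An annotated exon of H3C12 overlaps H2AC17, and 4 of its clusters counted for both genes. H3 clusters met from 74 to 63 nt before the end of the stop codon, where 6 of 12 clusters from 4 genes lay. Among these were clusters of H3C14 and H3C15 whose sequences occur in both genes. Each gene had 6 reads there in RNase I 0.05/0.05 and 5 in RNase I 0.05/0.025, so the same reads can be counted at both.

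Of 15 H4 genes 9 had a cluster (60%) and 4 were targets (26.7%) in any library, beside the same 46.7% and 29.5%. H4C3 had 8.89, 8.71 and 43.2 CPM with RNase I and none with RNase T1. H4C5 had 7.20 CPM in RNase I 0.05/0.05, 46.2 CPM in RNase I 0.05/0.025 and no cluster in the others. Unlike those of H2A, the H4 clusters overlapped most often behind the stop codon, where 8 of 33 from 6 genes shared nucleotides 3 to 6 of the 3′UTR. Only 8 of the 33 clusters had their centre behind the stop codon. The clusters of H4C11 and H4C12 at this place in RNase I 0.05/0.05 have sequences that occur in both genes.

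**Figure D3:**
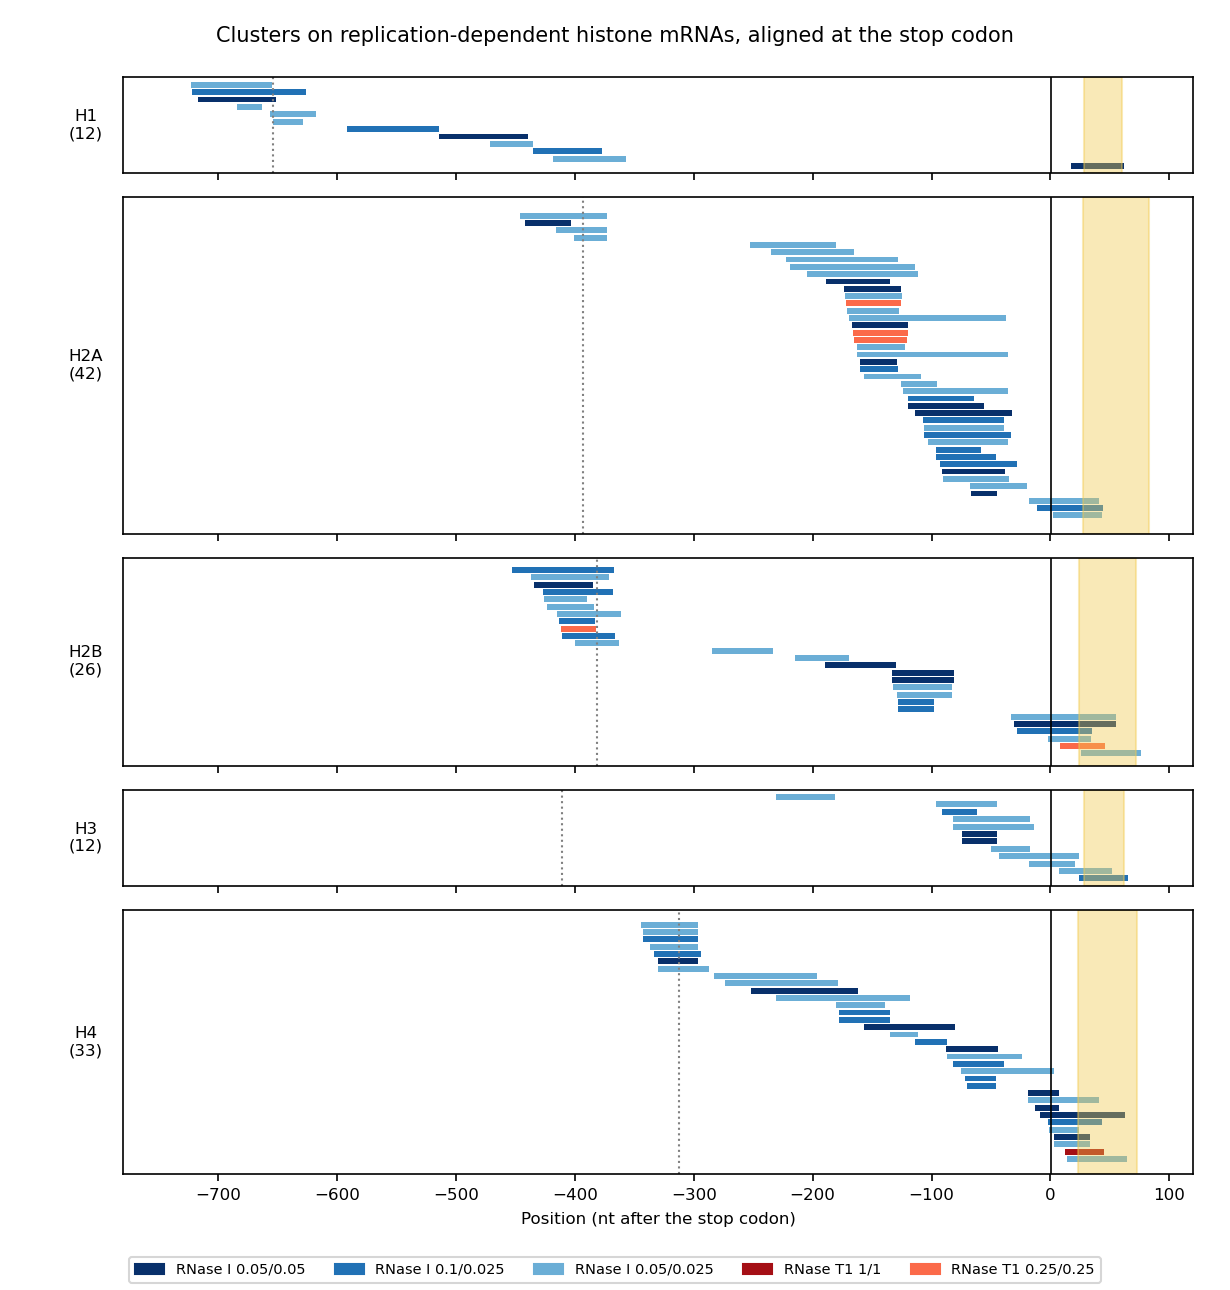
Clusters on the canonical transcripts of replication-dependent histone genes, 1 bar per cluster coloured by library, by family (number of clusters in brackets) and aligned at the stop codon (solid line); dotted lines mark the median start of the coding sequence and the yellow band spans the stem-loop positions of the family. H2A clusters overlap most at 157 to 136 nt before the end of the stop codon, and no cluster reaches more than 4 nt past its own stem-loop.

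By reads, 56.0%, 77.5%, 76.6%, 0% and 69.2% of the replication-dependent cluster reads lay in coding sequence in RNase I 0.05/0.05, 0.1/0.025, 0.05/0.025, RNase T1 1/1 and 0.25/0.25. The 3′UTR, counted first where a cluster crossed the stop codon, had 19.0%, 13.8%, 20.2%, 33.3% and 15.4%. A cluster that crossed the start codon counted as coding, even where most of it lay in the 5′UTR. In RNase T1 1/1 these shares come from 18 reads, of which 12 were the distal cluster of H2BC5. Among the variants, 91.7%, 89.9%, 92.2%, 90.6% and 90.8% of reads lay in the 3′UTR and 2.10%, 0.839%, 1.15%, 2.55% and 1.91% in coding sequence. The intervals of the coding share did not overlap between the classes in 4 libraries, and did in RNase T1 1/1. They treat reads listed at several copies as separate reads. The median 3′UTR is 56.5 nt in the replication-dependent class and 567.5 nt among the variants. In the leading gene of each class, coding sequence is 393 of 495 nt in H2AC13 and 411 of 2705 nt in H3-3B. The shares are not corrected for length and do not show a preference for coding sequence. With clusters of unique sequence alone, the coding share of the replication-dependent class was 45.5%, 68.3%, 66.9%, 0% and 29.4%.

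**Figure D4:**
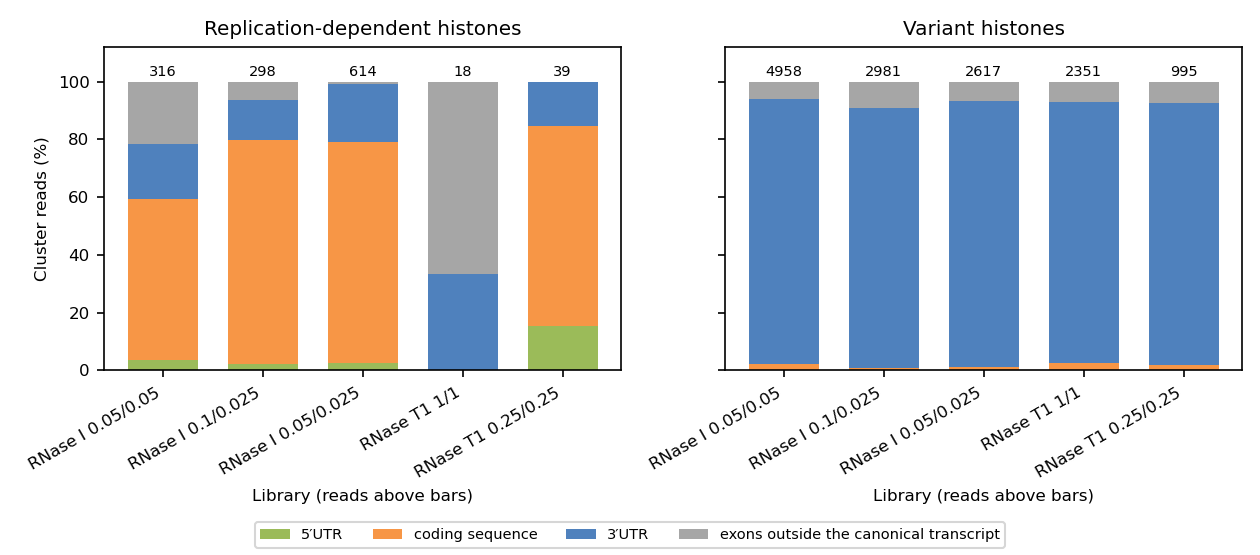
Percent of cluster reads in 5′UTR, coding sequence, 3′UTR and exons outside the canonical transcript, for replication-dependent (left) and variant (right) histones in each IGF2BP3 library, with the number of reads above each bar. The 3′UTR holds 89.9% to 92.2% of variant reads, and coding sequence holds 56.0% to 77.5% of replication-dependent reads in every library except RNase T1 1/1. Clusters over the start codon count as coding, and reads listed at several copies count at each.

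The stem-loop itself was covered in 9 replication-dependent genes. Their 14 clusters were on H1-4, H2AC21, H2BC5, H2BC7, H2BC21, H3C2, H3C12, H4C2 and H4C5, and 11 of the 14 held all 16 nt. H4C2, which had 4.23, 12.5, 26.8 and 5.19 CPM in the RNase I libraries and RNase T1 1/1, was covered there in all 4. These clusters stopped close behind the structure. None ended more than 5 nt past it and the farthest reached 4 nt. The deposited mode position of a cluster need not be a crosslinked uridine. It lay before the stem-loop in 10 clusters, past it in 4 and inside it in none. Stem-loop clusters held 15.5%, 5.37%, 12.2%, 33.3% and 15.4% of the class's reads, or 49, 16, 75, 6 and 6 reads.

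H2AX, which is phosphorylated around DNA double-strand breaks, is known to produce both a stem-loop and a polyadenylated mRNA. It had 47.0, 218, 231, 16.4 and 214 CPM in the 5 libraries, from 111, 175, 155, 19 and 39 reads. RNase T1 1/1, where it was no target, was the lowest. The stem-loop lies 50 to 65 nt behind the stop codon of a 3′UTR of 1089 nt. Of its 16 clusters only 1 touched the stem-loop, in RNase I 0.1/0.025, with 6 reads at 46 to 83 nt, and it ran 18 nt past the structure. The other 15 lay 627 to 1068 nt behind the stop codon, beyond the end of a stem-loop mRNA, and were seen in all 5 libraries.

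Among the variants, H3-3B had the most reads. Together with H3-3A it encodes H3.3, which is deposited independently of replication. H3-3B had 1391, 2222, 2390, 866 and 2741 CPM, and its 3287, 1785, 1603, 1002 and 500 reads were 66.3%, 59.9%, 61.3%, 42.6% and 50.3% of all variant reads. Without it the variants kept 707, 1489, 1512, 1166 and 2713 CPM. Per kb of transcript, H3-3B had rank 41, 27, 30, 67 and 31 among the 8760, 6411, 6068, 7544 and 3339 protein-coding genes with a cluster.

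The H3-3B 3′UTR is 2161 nt long and was bound in its first part. With RNase I 0.05/0.05 a single cluster ran from 76 to 1155 nt behind the stop codon with 3202 reads, and with RNase I 0.1/0.025 one ran from 74 to 1154 nt with 1776 reads. In RNase I 0.05/0.025 it was split at 471 and 475 nt into clusters of 990 and 603 reads and ended at 1160 nt. The RNase T1 libraries had 9 and 10 shorter clusters between 93 and 1088 nt. Past 1160 nt only RNase I 0.05/0.05 had clusters, at 1684 to 1983 nt, each with under 3 CPM. No annotated H3-3B transcript ends near 1155 nt. A cluster of 139 reads in RNase T1 1/1, at 94 to 146 nt, was also listed with 137 reads at H3-5, a gene derived from H3-3B.

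H3-3A behaved differently with the enzymes. It had 25.8, 22.4 and 38.8 CPM with RNase I and 173 and 422 CPM with RNase T1. The RNase T1 reads came from 1 place, 392 to 439 nt behind the stop codon, with 192 reads in RNase T1 1/1 and 69 in RNase T1 0.25/0.25, and its letters, printed above, hold CATA, CATC and CATT. RNase I clusters at the same place held 18, 12 and 8 reads. That sequence occurs elsewhere in the genome and nearly the same counts were listed at a lncRNA locus on chromosome 2 and at an unannotated place on chromosome 4. Only 4.30% of the 30-nt stretches of the H3-3A transcript were unique, so these reads cannot be assigned to H3-3A alone.

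H2AZ1 and H2AZ2 encode the H2A.Z variants found around transcription start sites. H2AZ1 had 167, 380, 528, 252 and 882 CPM. RNase I clusters covered 95.5%, 90.4% and 87.4% of its 374-nt 3′UTR, and RNase T1 clusters 31.8% and 49.2%. Both RNase T1 libraries had their top cluster at 320 to 361 nt, near the end of the mRNA, with 163 and 79 reads. With RNase I that end was covered by clusters from 278, 233 and 257 nt onward, with 146, 107 and 117 reads, so the site was found with both enzymes. H2AZ2 had 193, 467, 355, 231 and 493 CPM. Only 33.6%, 24.8%, 24.8%, 37.8% and 18.9% of its reads lay in the 3′UTR of the canonical transcript. The rest lay mainly farther downstream, up to 7704 nt behind the stop codon, in annotated longer 3′ ends that stop at 4604 and 7710 nt.

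Per kb of canonical transcript, the mean over the 5 libraries was 711 CPM for H3-3B and 510 CPM for H2AZ1. It was lower for H3-3A with 127 and H2AX with 91.2 CPM. H2AZ2 had 115 CPM per kb with reads on all its exons and 31.2 with those on canonical exons alone, below H2AX, whereas the values of the other 4 were the same either way.

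**Figure D5:**
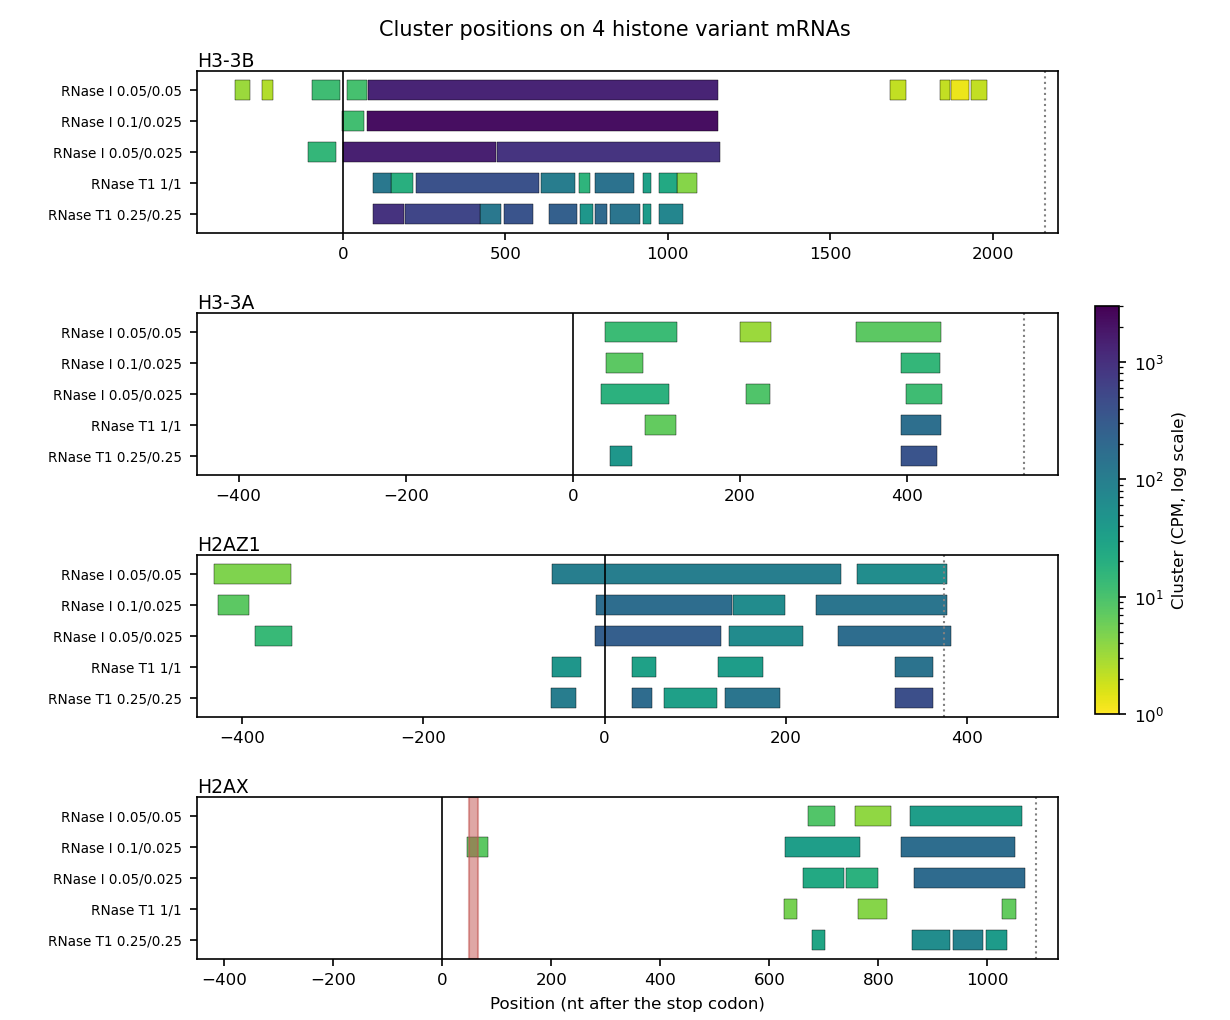
Clusters of 4 histone variants in the 5 IGF2BP3 libraries by position behind the stop codon (0, solid line), coloured by CPM on a log scale; dotted lines mark the annotated 3′ end and the red band in H2AX its stem-loop. RNase I clusters are broad and RNase T1 clusters short, and H3-3B clusters above 3 CPM stop by 1160 nt.

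MACROH2A1 and MACROH2A2, whose proteins carry a macro domain and are enriched on silent chromatin, had low levels. MACROH2A1 had 35.6, 56.0, 79.0 and 21.6 CPM and no cluster in RNase T1 0.25/0.25, and was a target in RNase I 0.1/0.025 and 0.05/0.025. MACROH2A2 had 11.01, 13.7, 8.95, 32.8 and 32.9 CPM from 26, 11, 6, 38 and 6 reads, and was a target in RNase I 0.05/0.05 and RNase T1 1/1. Each library had a single MACROH2A2 cluster, and these lay at 248 to 359, 270 to 293, 283 to 319, 278 to 334 and 279 to 301 nt behind the stop codon, so that all 5 shared the same few nucleotides. H1-10, a linker histone variant, had 4.23, 21.2 and 5.96 CPM with RNase I and no cluster with RNase T1, and was no target. H2AJ and the germline histones H1-7 and H1-8 had no cluster.

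Although they held fewer reads, the replication-dependent clusters had a higher density of the CAUH motif than the variant clusters in 4 of 5 libraries. Per 100 nt, the replication-dependent clusters had 2.37, 1.77, 2.09, 1.54 and 5.39 of the tetramers CAUA, CAUC and CAUU on the RNA strand, and the variant clusters 1.34, 1.30, 1.49, 1.77 and 1.77. All clusters on protein-coding exons had 1.68, 1.85, 1.80, 2.40 and 2.42. The tetramer CAGU ran the other way, with 0.356, 0.316, 0.248, 0 and 0 per 100 nt of replication-dependent and 0.652, 0.649, 0.600, 0.394 and 0.404 per 100 nt of variant clusters. The whole transcripts had 1.05 CAUH and 0.252 CAGU per 100 nt in the replication-dependent and 0.922 and 0.486 in the variant class. The replication-dependent values of RNase T1 rest on 65 and 204 nt of sequence, and repeated gene copies enter these counts more than once. Variant transcripts held more uridine, 22.5% against 19.4%, the base that 4sU replaces.

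Genes that make, process or carry histones were examined beside the histone genes. Of 13 genes for histone mRNA synthesis and 3′-end processing, 13, 7, 10, 11 and 3 had a cluster and 4, 5, 7, 7 and 3 were targets in RNase I 0.05/0.05, 0.1/0.025, 0.05/0.025, RNase T1 1/1 and 0.25/0.25. Of all protein-coding genes 43.7%, 32%, 30.3%, 37.6% and 16.7% had a cluster and 21.9%, 21.3%, 22%, 19.6% and 13.7% were targets in these libraries. SLBP, the protein that binds the stem-loop, was the only one called in all 5, with 59.7, 77.2, 116, 20.7 and 60.3 CPM. NPAT, the activator of histone transcription in S phase, had 33.9, 32.4, 32.8, 67.4 and 121 CPM and was a target in all but RNase I 0.05/0.05. CPSF3, the nuclease that cuts histone pre-mRNA, LSM11 and SYMPK, which act in the same cleavage, and UPF1, which acts in histone mRNA decay, had clusters but were targets in no library.

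Of 20 histone chaperones and exchange factors, 17, 14, 13, 14 and 10 had a cluster and 11, 13, 11, 11 and 7 were targets in the same order, beside the same shares of all protein-coding genes. ANP32E, ASF1B, RBBP4, SET, SRCAP, SSRP1 and SUPT16H were targets in all 5 libraries. SUPT16H, a subunit of the chaperone FACT, had 597, 803, 918, 474 and 959 CPM, and its partner SSRP1 had 83.0, 138, 166, 27.7 and 27.4 CPM. SRCAP, the ATPase that inserts H2A.Z, had 789, 804, 717, 453 and 872 CPM, and ANP32E, which removes H2A.Z, had 108, 306, 268, 319 and 877 CPM. SET, a chaperone and phosphatase inhibitor, had 353, 472, 596, 352 and 526 CPM. ASF1B, which hands H3-H4 to assembly factors, had 58.4, 346, 418, 25.1 and 302 CPM, lowest in both electroeluted libraries. RBBP4, a histone-binding subunit of several chromatin complexes, had 140, 163, 173, 143 and 236 CPM. HIRA, CABIN1, CHAF1B and ATRX had clusters but were no targets, and CHAF1A, DAXX and NASP had none. In the IgG library none of the 33 genes of both lists had a cluster.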

How the data were processed

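IGF2BP3 IR-PAR-CLIP clusters of 5 HCT116 libraries and 1 IgG library were analysed, with 1 library per condition and groups taken from the submitters' labels. The authors used Trimmomatic 0.30 to restrict reads to 18 to 45 nt, Bowtie 0.12.7 to map them on GRCh38.p13 with mismatches allowed, UMI-tools 1.1.1 to collapse reads by their molecular identifiers, and PARalyzer to call clusters library by library. The values deposited by the authors are read counts and counts of conversion events per cluster, which are not normalized. The reads listed cover clusters only and are not the depth of the libraries. A cluster missing from a list means that none was called, not that no read was present. The deposited mode location, as per the file headers, served only to place the mode of a cluster.

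All cluster sequences were identical to GRCh38. Clusters were joined to exons of GENCODE release 44, CPM was computed from the sum of cluster reads, and a cluster over several features was assigned to the 3′UTR first, then to coding sequence. Canonical transcripts gave lengths and positions, and position 1 is the first nucleotide behind the stop codon. Copies were counted as exact matches in the genome. Computations used pandas 2.3.3 with numpy 2.4.6, pysam 0.24.0, numba 0.67.0 and scipy 1.17.1 under Python 3.11.15, and figures matplotlib 3.10.9. Intervals are 95% Wilson intervals for shares. The assignment, target calls and intervals were tested on simulated data. No test between conditions was made, since each had 1 library.

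The members, gene lists and settings were chosen with earlier results of these data known. The text names the 12 replication-dependent genes with the highest mean CPM, the variants with a cluster except 1 that is not reported here, SLBP, NPAT, and the genes of the 2 lists that met the target criteria in all or, despite a cluster, in no library. Other genes were named after their values were seen. Alternatives changed the CPM and conversion thresholds, the assignment of genes and features, the class split, unique against all clusters, and the libraries included. Alignments, read lengths and PARalyzer settings were not used here.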

Additional observations from a re-analysis of the deposited data

How the results depend on the processing

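Of 62 alternatives to 11 results, 50 stayed within the interval or within 1.5 times the reported count. These limits are wide and the tally does not show stability. They include the drop of replication-dependent targets from 18 to 12 with clusters of unique sequence. The interval was that of the library nearest the median. For the coding and stem-loop shares of the replication-dependent class it was RNase T1 0.25/0.25, with 39 reads. The 18 replication-dependent targets became 29 with more than 5 CPM, 8 with more than 20 CPM and 4 when at least 20 reads replaced the CPM threshold. Each IGF2BP3 library was also left out in turn, an alternative chosen after seeing the data, which gave 9 to 18 replication-dependent targets, the lowest without RNase I 0.05/0.025, and 28 to 34 replication-dependent genes with a cluster. The variants kept 8 targets and 9 genes with a cluster whichever library was left out. Their targets numbered 8 with more than 5 CPM, 7 with more than 20 CPM and 8 with at least 20 reads. Over the 5 libraries, the median coding share of the replication-dependent reads was 69.2%, against 45.5% with clusters of unique sequence and 41.5% when the classes were split by the stem-loop. Their median sum was 214 CPM, against 94.8 and 428 CPM under the same settings. The median coding share of variant reads was 1.91%, against 0.844% with unique clusters, 5.90% with coding sequence counted before the 3′UTR and 8.51% with each cluster counted once. Their median sum of 3710 CPM became 3365 CPM on canonical exons alone and 3492 CPM with the split by stem-loop. The cause of these shifts was not tested. No paired analysis was possible because each condition had 1 library. Few replication-dependent genes had a cluster in either RNase T1 library. RNase T1 0.25/0.25 held the fewest reads and RNase T1 1/1 held 1157194 reads. These libraries also differed in extraction and enzyme concentration, and the part of depth was not tested.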
